A study of Mus musculus with 24 samples.

Results

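Cxcl12, Cxcr4 and Ackr3 encode a chemokine and its pair of receptors, and their 3 gene symbols were looked up among the 54429 in the deposited tables. All 3 were found, and 2 of them, Cxcl12 and Cxcr4, had enough reads for the test across genes, which held 12797 genes. Col1a2, a chain of type I collagen and a transcript typical of fibroblasts, was set beside Cxcl12. RNA had been sequenced from macrophages grown out of the femur and tibia marrow of C57BL/6N mice with M-CSF at 10 ng/ml, lifted with 5 mM EDTA and replated on day 7. Wild-type mice (MK2 WT) and mice labelled as knockout for the kinase MK2 (MK2 KO, gene Mapkapk2) each gave 6 libraries of unstimulated cells (M0). Each genotype also gave 6 libraries of cells kept for 24 h with murine IL-4 at 10 ng/ml (M2). The labels do not describe the knockout allele, the age or sex of the mice, or whether replicates were separate animals, so the tests speak of the spread between these libraries, which may be technical.

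CXCL12 is secreted by stromal cells of the marrow, among them reticular cells, osteoblasts and endothelium, and holds blood stem cells, B cell precursors and neutrophils in their niche. It binds CXCR4, a receptor coupled to inhibitory G proteins that drives migration, and ACKR3, an atypical receptor that binds the chemokine without G protein signalling and removes it through arrestins. Macrophages are known to carry CXCR4, whereas fibroblasts are a well-known source of the ligand.

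The libraries held 7893809 to 13492507 counts. Mapkapk2 lay between 100.3 and 139 CPM (counts scaled to a common library size by TMM) in the 12 wild-type libraries and between 47.8 and 63.4 CPM in the 12 knockout libraries, so its transcript remained in the latter. Macrophage markers were abundant in all 4 groups, with a sum over 12 genes of 12453 to 21576 CPM (sums over lists use total counts), and all 12 markers were above 0 in each group. Stromal and fibroblast markers, 27 genes, summed to 235 to 349 CPM in unstimulated wild type and 227 to 321 with IL-4. In knockout they summed to 20.5 to 58.1 without IL-4 and 19.8 to 41.8 with it, and Lum was at 0 in unstimulated knockout. Replicates 1 to 3 and 4 to 6 carry separate runs of library numbers in the labels, apart from 3 libraries with numbers of their own. Values within each set of 3 are therefore given for some of the results, and others may also differ between the sets.

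The genes lie on the mouse build mm10. Cxcl12 (ENSMUSG00000061353.11) spans chromosome 6, 117168535 to 117181367, on the plus strand, with 4 annotated transcripts of 3 or 4 exons. Cxcr4 (ENSMUSG00000045382.6) spans chromosome 1, 128588199 to 128592293, on the minus strand, with 2 transcripts of 2 exons each. Ackr3 (ENSMUSG00000044337.5) spans chromosome 1, 90203980 to 90216751, on the plus strand, with 2 transcripts. No other annotated gene overlaps any of the 3, and reads of transcripts outside the annotation were not examined. Col1a2 (ENSMUSG00000029661.16) spans chromosome 6, 4504814 to 4541544, on the plus strand, and 1 predicted gene on the same strand overlaps it.

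The 250 bases upstream of the start of transcription are shown for Cxcl12, whose level differed between genotypes, and for Cxcr4, whose level fell with IL-4 in wild type. They are RefSeq sequences on GRCm38.p6, chr6:117168285-117168534 on the plus strand and chr1:128592300-128592549 on the minus strand, and capitals mark every match to the motifs searched.
Cxcl12: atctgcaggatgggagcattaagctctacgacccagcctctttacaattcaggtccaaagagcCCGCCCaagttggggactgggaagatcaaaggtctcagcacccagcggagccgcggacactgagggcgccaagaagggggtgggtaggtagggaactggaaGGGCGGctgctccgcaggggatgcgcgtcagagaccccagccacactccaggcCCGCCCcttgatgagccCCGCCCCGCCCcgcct
Cxcr4: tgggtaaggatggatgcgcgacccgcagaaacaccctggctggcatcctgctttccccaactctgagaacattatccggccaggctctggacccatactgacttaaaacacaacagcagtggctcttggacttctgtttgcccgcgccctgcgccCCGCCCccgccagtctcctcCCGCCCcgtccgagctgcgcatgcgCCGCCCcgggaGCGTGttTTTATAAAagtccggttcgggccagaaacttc
Both strands were searched for the GC box GGGCGG, the TATA box TATAAA, the hypoxia element core ACGTG or GCGTG, and the STAT6 motif, TTC and GAA with 4 free bases between them, named for the transcription factor of the IL-4 receptor. The Cxcl12 window held 5 GC boxes, of which the last 2 overlap by a base, and no match to the other 3 motifs. The Cxcr4 window held 3 GC boxes, 1 hypoxia core and 2 overlapping TATA matches, 1 on each strand, and none to the STAT6 letters. The Ackr3 window held 1 GC box, 1 TATA box and 1 hypoxia core. Of 32817 upstream windows of this length, 32.7% hold a GC box, 12.4% the TATA letters, 38.6% a hypoxia core and 5.85% the STAT6 letters. GC content was 64.4% for Cxcl12, 61.2% for Cxcr4 and 54.0% for Ackr3, against a median of 52.4%. A match is a match of letters, with no binding measured here.

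Cxcl12, the ligand, was present at a low level in every wild-type library and close to 0 in every knockout library, and IL-4 moved it past the threshold in neither genotype. In unstimulated wild type it had 42 to 94 counts per library, with a lowest, median and highest level of 5.27, 6.60 and 9.92 CPM. With IL-4 the wild-type libraries had 47 to 84 counts, at 3.80, 6.82 and 8.55 CPM. The 2 wild-type groups overlapped almost wholly. In unstimulated knockout replicates 1 to 6 there were 5, 3, 2, 0, 4 and 1 counts, and with IL-4 there were 8, 7, 3, 1, 1 and 2. Replicate 1 was the highest of its group in both knockout states, and replicate 4 of unstimulated knockout had no read of the gene.

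The genotype comparison asked whether Cxcl12 differed between the libraries labelled MK2 KO and MK2 WT. Unstimulated wild type had 7.01 ± 1.70 CPM (SD, n = 6) and unstimulated knockout 0.257 ± 0.200 CPM, a log2 fold change of -4.73 (SE 0.38; by the quasi-likelihood test of edgeR over all genes tested, adjusted p = 1.24e-09). With IL-4 wild type had 6.61 ± 1.67 CPM and knockout 0.378 ± 0.321 CPM, a log2 fold change of -4.06 (SE 0.36, adjusted p = 7.49e-09). The groups did not overlap in either state. Of all genes tested, 3.42% were called lower and 1.1% higher in unstimulated knockout, and 3.09% lower and 1.51% higher in knockout with IL-4. Summed over 6 libraries, 15 counts stood against 404 without IL-4, which is 27.1-fold lower (95% exact binomial interval 16.2 to 48.8). With IL-4, 22 stood against 386, or 17.6-fold lower (11.4 to 28.3). These intervals cover counting error only.

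The size of the genotype difference varied with the set of replicates. In replicates 1 to 3 alone, a fit chosen after seeing the data, the log2 fold change was -3.95 without IL-4 and -3.23 with it. In replicates 4 to 6 it was -5.58 and -5.48. Wild-type Cxcl12 was 5.71 ± 0.390 CPM (n = 3) in replicates 1 to 3 and 8.31 ± 1.43 CPM in 4 to 6 without IL-4. The corresponding knockout means were 0.361 ± 0.196 and 0.153 ± 0.172 CPM. With IL-4 the means in the 2 sets were 5.48 ± 1.54 and 7.73 ± 0.877 CPM in wild type. In knockout with IL-4 they were 0.596 ± 0.333 and 0.161 ± 0.0694 CPM. The direction was the same in both sets.

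**Figure D1:**
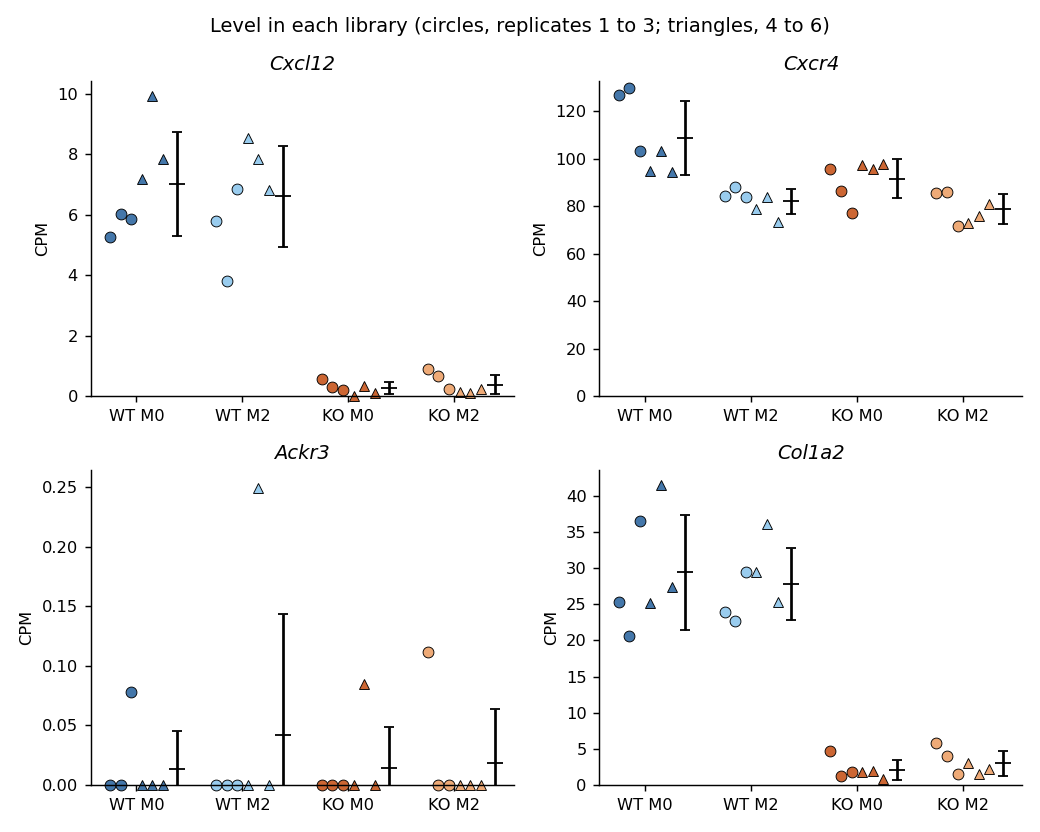
Level of Cxcl12, Cxcr4, Ackr3 and Col1a2 in each library, in CPM on linear axes that differ between panels; circles are replicates 1 to 3, triangles 4 to 6, and the bar beside each group is the mean ± SD of 6. Cxcl12 and Col1a2 were low in all 12 knockout libraries, Cxcr4 was highest in unstimulated wild type, and Ackr3 was above 0 in 1 library of each group.

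Col1a2 was lower in the same libraries. It was 29.4 ± 7.94 CPM in unstimulated wild type and 27.8 ± 4.93 CPM with IL-4, against 2.06 ± 1.38 and 2.99 ± 1.69 CPM in knockout (SD, n = 6 each). The lowest wild-type library had 20.6 CPM and the highest knockout library 5.80 CPM. The knockout log2 fold change was -3.85 without IL-4 (SE 0.31, adjusted p = 4.01e-09 by edgeR) and -3.22 with it (SE 0.30, adjusted p = 4.61e-08). On the length-scaled GETMM scale, which allows genes to be set side by side, Cxcl12 was 4.63 ± 1.13 and Col1a2 9.91 ± 2.77 in unstimulated wild type, and Cxcr4 was 106 ± 14.7. Of the genes tested, 24.8% had a lower mean GETMM level than Cxcl12 there, and 89.5% a lower one than Cxcr4. Which cells the Cxcl12 reads came from was not measured. Fewer cells of a source and less RNA per cell cannot be told apart in these bulk libraries.

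Of the 24 stromal and fibroblast markers that passed the filter on low counts, 24 were lower in knockout without IL-4 and the same number with IL-4. Of all genes tested, 3.42% and 3.09% were called lower. Their median log2 fold change was -3.32 without IL-4 and -3.21 with it, against -0.0069 and 0.006 over all genes tested. Cxcl12 was lower than every one of them without IL-4, where the nearest was Dcn (-4.25), the proteoglycan decorin, followed by Col6a2 (-3.93), a chain of type VI collagen. With IL-4 it stood second after Pdgfra (-4.46), the receptor for platelet-derived growth factor on mesenchymal cells. The smallest falls without IL-4 were in Pcolce (-1.05), a helper of procollagen processing, and Mmp2 (-1.70), a matrix protease that also cuts CXCL12. The intervals of Cxcl12, -5.48 to -3.98 without IL-4 and -4.76 to -3.35 with it, overlapped those of several collagen genes. A marker could pass that filter through its wild-type level alone, so this number is a description. The same holds for the numbers called lower in knockout in the lists below.

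**Figure D2:**
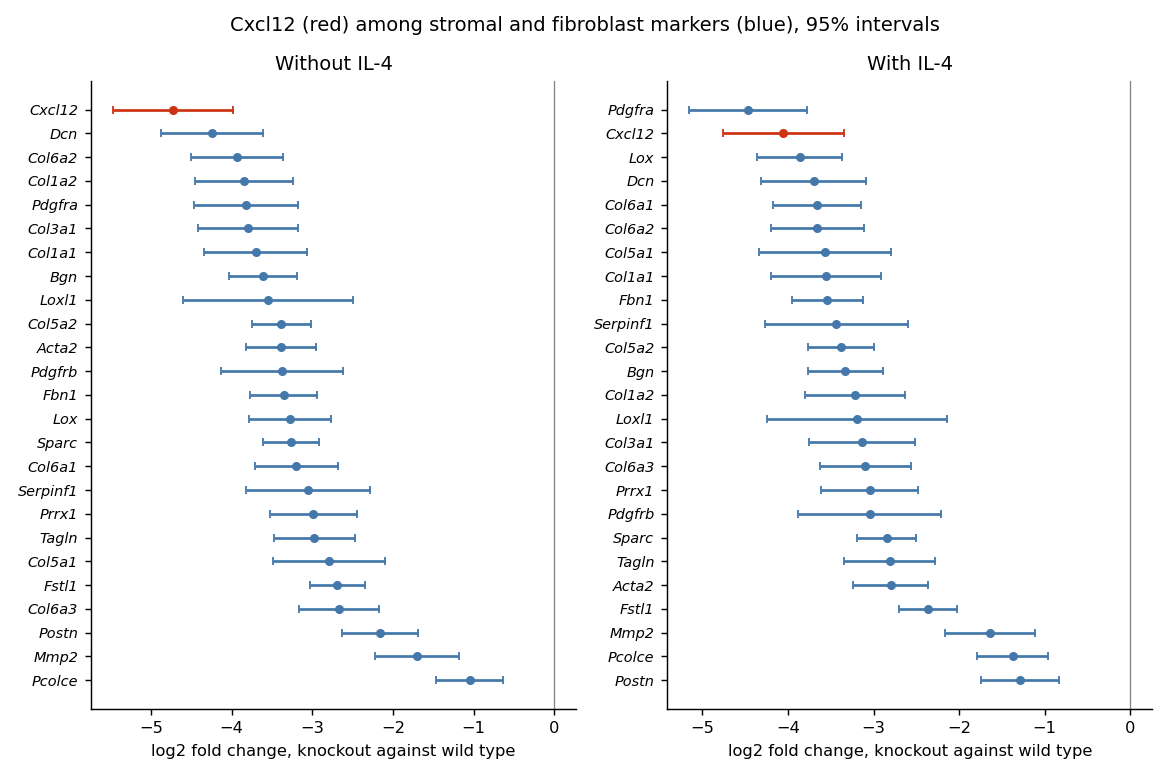
Log2 fold change of knockout against wild type, without IL-4 on the left and with it on the right, for Cxcl12 in red and the 24 tested stromal and fibroblast markers in blue; bars are 95% intervals. All points lie left of 0, with Cxcl12 at -4.73 the lowest without IL-4 and at -4.06 the second lowest with it.

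To set Cxcl12 against stromal RNA in the same library, its counts were divided by those of Col1a2. Per 100 Col1a2 counts there were 24.5 ± 5.30 Cxcl12 counts in unstimulated wild type, ranging from 16.0 to 29.1, and 23.7 ± 4.27 with IL-4, ranging from 16.8 to 29.1. In knockout there were 13.1 ± 7.79 without IL-4, from 0 to 23.1, and 11.8 ± 4.93 with it, from 4.35 to 16.3. The 2 wild-type means lay within 1 SD of each other, and the knockout means were lower. The difference was -11.4 without IL-4 (n = 6 against 6, two-sided exact permutation p = 0.0152, adjusted p = 0.0303 over 8 comparisons), where the groups overlapped. With IL-4 it was -11.9 (exact permutation p = 0.00216, the smallest the design allows, adjusted p = 0.00866), and the groups did not overlap. The knockout ratios rest on 7 to 52 Col1a2 counts per library.

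With the summed counts of the 27 stromal markers as the denominator the knockout ratio was also lower. It uses the same Cxcl12 counts, and the 27 markers include Col1a2, so the 2 ratios are not independent. Both also restate that Cxcl12 fell further than Col1a2 and most of the list. Per 100 of them there were 2.50 ± 0.539 Cxcl12 counts in unstimulated wild type and 2.48 ± 0.532 with IL-4. In knockout there were 0.812 ± 0.478 and 1.17 ± 0.756. The difference was -1.69 without IL-4 (exact permutation p = 0.00216, adjusted p = 0.00866) and -1.31 with it (exact permutation p = 0.00866, adjusted p = 0.0231, n = 6 against 6). With IL-4 it was -0.380 in replicates 1 to 3 and -2.25 in replicates 4 to 6, and without IL-4 -1.05 and -2.32, splits chosen after seeing the data in which 3 against 3 allows no exact p below 0.1. The Col1a2 ratio differed by -6.53 and -16.2 without IL-4 in the 2 sets, and by -5.59 and -18.2 with it. The 4 comparisons of IL-4 with none gave adjusted exact permutation p from 0.537 to 0.968.

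**Figure D3:**
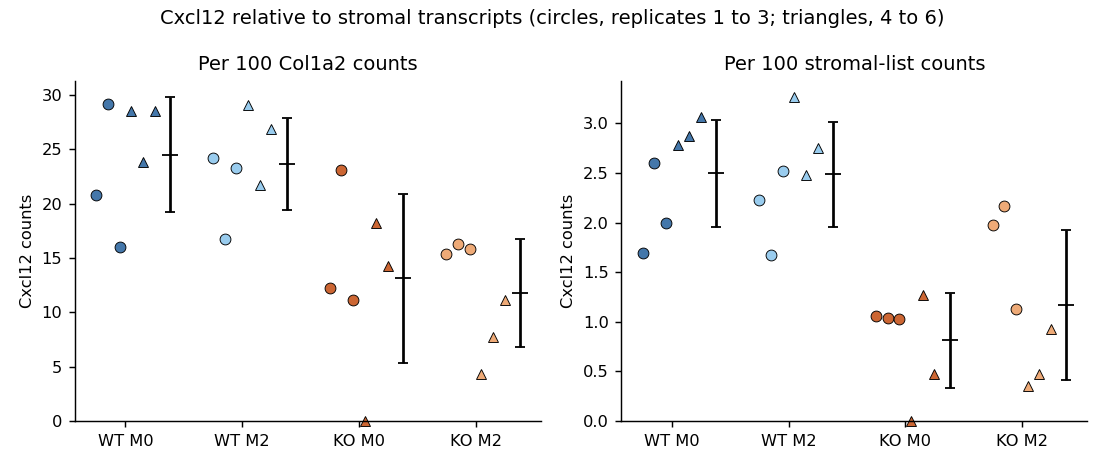
Cxcl12 counts per 100 Col1a2 counts (left) and per 100 summed counts of 27 stromal markers (right) in each library; circles are replicates 1 to 3, triangles 4 to 6, and bars are the mean ± SD of 6. Wild-type libraries sit between 16.0 and 29.1 on the left, and knockout libraries between 0 and 23.1.

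Within the wild-type groups Cxcl12 and Col1a2 had positive correlations, and neither passed the threshold after adjustment. Relations were computed in the wild-type groups, where every library had at least 5 counts of both genes, and knockout libraries fell short of that. In unstimulated wild type, Pearson's r of log2(CPM + 1) between Cxcl12 and Col1a2 was 0.545 (n = 6, exact permutation p = 0.267, adjusted p = 0.356) and Spearman's rho 0.371 (exact permutation p = 0.497, adjusted p = 0.663). Without the 2 libraries farthest from the median r was 0.468. With IL-4, r was 0.768 (n = 6, exact permutation p = 0.0653, adjusted p = 0.261) and rho 0.943 (exact permutation p = 0.0167, adjusted p = 0.0667), and r without the 2 farthest was 0.778. Against the summed stromal list r was 0.311 without IL-4 (n = 6, exact permutation p = 0.546, adjusted p = 0.546) and 0.700 with it (exact permutation p = 0.146, adjusted p = 0.292), with rho 0.0286 (exact permutation p = 1.0) and 0.771 (exact permutation p = 0.103, adjusted p = 0.206). Leaving out the 2 farthest libraries turned the former to -0.990 and brought the latter to 0.0662, so these relations rest on those libraries. None of the 4 relations passed the threshold after adjustment, and each set of 3 replicates held too few libraries for a value of its own.

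Over all 24 libraries the genes most like Cxcl12, among 9561 genes compared by Pearson's r of log2(CPM + 1), were Tnc (0.986), Cyp1b1 (0.982), Col12a1 (0.981), Col1a2 (0.980) and Fat1 (0.979). Tnc encodes the matrix protein tenascin C, Col12a1 a fibril-associated collagen, Cyp1b1 a cytochrome P450 and Fat1 a giant cadherin. The libraries share the genotype difference, so these values mostly restate it. With IL-4, wild type had 15.9 ± 2.17 CPM of Tnc, and knockout 1.26 ± 0.527 CPM. Once group means were removed, the genes most like Cxcl12 were Thbs1 (0.740), Spp1 (0.729), Edem1 (0.706), Rtp4 (0.704) and Mff (0.702), and Col1a2 was 16th at 0.672. These were picked as the highest values among 9561 genes and were not tested. Differences between the sets of replicates within a group were not removed.

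Other possible sources of the ligand were followed by their markers. Of 16 markers of CXCL12-rich reticular and osteolineage cells of the marrow, 6 passed the filter. Lepr, the leptin receptor that defines reticular cells, had 6, 2, 3 and 3 counts summed over the libraries of wild type M0, wild type M2, knockout M0 and knockout M2. The reticular transcription factor gene Foxc1 had 33, 23, 4 and 7 in that order, and Ebf3 29, 17, 3 and 3. The osteoblast genes Sp7 and Bglap were at 0 in wild type with IL-4 and unstimulated knockout, and Sp7 also in knockout with IL-4. The 16 niche markers summed to 85.0 to 280 CPM in unstimulated wild type and 67.7 to 233 with IL-4, against 105 to 154 and 89.7 to 147 in knockout. Most of this sum came from Vcam1, an adhesion molecule that macrophages also express, Kitl and Nes together. Vcam1 was 98.2 ± 80.6 CPM in unstimulated wild type and 45.2 ± 17.7 CPM in unstimulated knockout (log2 fold change -1.12, adjusted p = 0.461 by edgeR), so the range of the sum does not show the lower genes. Grem1, a BMP antagonist of stromal cells, was lower in knockout (log2 fold change -3.39 without IL-4 and -3.63 with it, adjusted p = 1.37e-07 and 1.48e-07 by edgeR), and Nes, the intermediate filament nestin, was higher (0.84 and 0.85).

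Of 12 endothelial markers 3 passed the filter, and Cldn5, the tight junction claudin of endothelium, was at 0 in both unstimulated groups. Summed endothelial levels were 55.9 to 76.4 CPM in unstimulated wild type and 129 to 186 with IL-4, and 91.5 to 107 and 177 to 263 in knockout, most of it Vwf. Vwf, which encodes von Willebrand factor, rose with IL-4 and was higher in knockout (log2 fold change 0.69 without IL-4, adjusted p = 3.88e-05 by edgeR). Pecam1, an adhesion molecule of endothelium and leukocytes, passed in neither genotype comparison (-0.31 without IL-4 and -0.19 with it), nor did Kdr, a receptor for VEGF (0.22 and -0.22). With IL-4 Pecam1 rose in both genotypes (0.67 and 0.79) and Kdr fell in knockout (-0.89, adjusted p = 0.00181 by edgeR), so the 3 did not move one way. Cdh5, the cadherin of endothelial junctions, had 75, 39, 28 and 14 summed counts in the order above. Neutrophil markers, cells that carry CXCR4, summed to 190 to 265 CPM in unstimulated wild type and 112 to 195 in unstimulated knockout. With IL-4 they were 129 to 331 and 105 to 178. Of 8 tested neutrophil markers, Mmp8, a collagenase, was lower in unstimulated knockout (-0.85, adjusted p = 0.00114 by edgeR), and 0 passed between genotypes with IL-4. Of all genes tested, 3.42% were called lower without IL-4, and 4.59% in either direction with it.

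Some markers of other blood cells were also lower in knockout. Megakaryocyte and erythroid markers, 8 genes, summed to 8.62 to 20.2 CPM in unstimulated wild type and 8.94 to 21.2 with IL-4, and to 2.63 to 8.35 and 3.51 to 8.57 in knockout. Of the 2 that were tested, Ppbp, a platelet chemokine, was lower in both states (log2 fold change -1.28 without IL-4 and -1.29 with it, adjusted p = 0.0118 and 0.0109 by edgeR). Itga2b, the platelet integrin chain, passed with IL-4 (-1.08, adjusted p = 0.0114) and not without it (-0.72, adjusted p = 0.145). B cell markers summed to between 1.74 and 5.29 CPM over all libraries. Of the 2 tested, Ebf1, a factor of B cell precursors that marrow stromal cells also express, was 1.45 ± 0.451 CPM in unstimulated wild type and 0.142 ± 0.117 CPM in unstimulated knockout (log2 fold change -3.29, adjusted p = 4.54e-05 by edgeR), and did not pass with IL-4 (-1.05, adjusted p = 0.198). Progenitor markers summed to between 7.88 and 15.0 CPM, and 0 of the 4 tested passed between genotypes. T and NK cell markers summed to between 170 and 332 CPM, nearly all of it Cd28 (185 ± 18.8 CPM in unstimulated wild type). Cd28 was the 1 tested, and it did not pass between genotypes. Dendritic cell markers summed to between 1.38 and 4.99 CPM, and of the 2 tested Ccr7, a chemokine receptor, was higher in unstimulated knockout (1.59). Of all genes tested, 3.42% were called lower and 1.1% higher in unstimulated knockout, and 3.09% and 1.51% in knockout with IL-4. The part of these cells in the results was not tested.

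Cxcr4, the signalling receptor, was well expressed in all 24 libraries and fell with IL-4 in wild type. Its lowest, median and highest levels were 94.3, 103 and 130 CPM in unstimulated wild type and 73.5, 83.8 and 88.0 CPM with IL-4. Every wild-type library with IL-4 was below every one without. In knockout they were 77.1, 95.5 and 97.7 CPM without IL-4 and 71.6, 78.5 and 86.2 CPM with it. There the 2 groups overlapped, through replicate 3 of the unstimulated libraries.

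The IL-4 comparison asked whether this treatment shifted the members within a genotype. In wild type Cxcr4 went from 109 ± 15.7 to 82.0 ± 5.10 CPM (SD, n = 6 each), a log2 fold change of -0.41 (SE 0.08, adjusted p = 7.75e-04 by edgeR) or 24.5% less. Of all genes tested, 7.95% were called lower and 8.49% higher in this comparison. Its call held in 10 of 10 other ways of processing the counts and 24 of 24 fits that left out 1 library. The fits that left out a knockout library kept all wild-type libraries, so they say little about this call. The log2 fold change was -0.47 in replicates 1 to 3 and -0.31 in replicates 4 to 6. In knockout Cxcr4 went from 91.6 ± 8.25 to 78.9 ± 6.34 CPM, and the log2 fold change of -0.21 (SE 0.08, adjusted p = 0.0565) missed the threshold, where 11.4% of genes were called lower and 12.2% higher. It passed in 7 of 10 other ways of processing, with adjusted p from 0.0177, with culture number as a block, to 0.167, without a count filter (both by edgeR), so the call depends on the fit. In replicates 1 to 3 it was -0.09 (adjusted p = 0.675 by edgeR) and in replicates 4 to 6 it was -0.35 (adjusted p = 6.71e-04).

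Cxcl12 did not pass in the IL-4 comparisons. Its log2 fold change was -0.09 in wild type (SE 0.26, adjusted p = 0.864 by edgeR, 95% interval -0.61 to 0.42) and 0.58 in knockout (SE 0.53, adjusted p = 0.50, interval -0.46 to 1.62). The knockout value rests on 15 and 22 counts. Col1a2 stood at -0.09 (adjusted p = 0.857) and 0.54 (adjusted p = 0.341), close to Cxcl12 in both. Of the stromal list, Lox, which crosslinks collagen, rose with IL-4 in wild type (0.81), while Acta2, smooth muscle actin (-0.61), and Bgn, the proteoglycan biglycan (-0.56), fell. In knockout no member of that list passed. IL-4 changed 16.4% of all genes tested in wild type and 23.6% in knockout.

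The difference between the IL-4 responses of the genotypes was tested as an interaction. For Cxcr4 it was 0.19 (SE 0.11, adjusted p = 1.0 by edgeR, 95% interval -0.03 to 0.42), and for Cxcl12 0.67 (SE 0.59, adjusted p = 1.0, interval -0.49 to 1.83). Of the genes tested 0% were called in the edgeR fit of all libraries without a block, where 390 had an unadjusted p below 0.05. With culture number as a block edgeR called 2, DESeq2 called 1 and limma on log2(GETMM + 1) called 3, and edgeR called 21 in replicates 4 to 6 alone. A smaller Cxcr4 response in knockout was therefore not shown.

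Between genotypes Cxcr4 did not pass the threshold. Unstimulated knockout was lower than wild type by a log2 fold change of -0.25 (SE 0.08, adjusted p = 0.0886 by edgeR), and with IL-4 the value was -0.06 (SE 0.08, adjusted p = 0.895, 95% interval -0.22 to 0.10). The unstimulated difference lay in 1 set of replicates. In replicates 1 to 3, wild type was 120.0 ± 14.5 and knockout 86.3 ± 9.20 CPM (n = 3), a log2 fold change of -0.45 (adjusted p = 0.0494). In replicates 4 to 6 they were 97.5 ± 5.13 and 96.9 ± 1.19 CPM, a log2 fold change of 0.000325 (adjusted p = 0.998). In the order of group means, unstimulated wild type came first, then unstimulated knockout, wild type with IL-4 and knockout with IL-4, and each neighbouring pair overlapped in range.

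**Figure D4:**
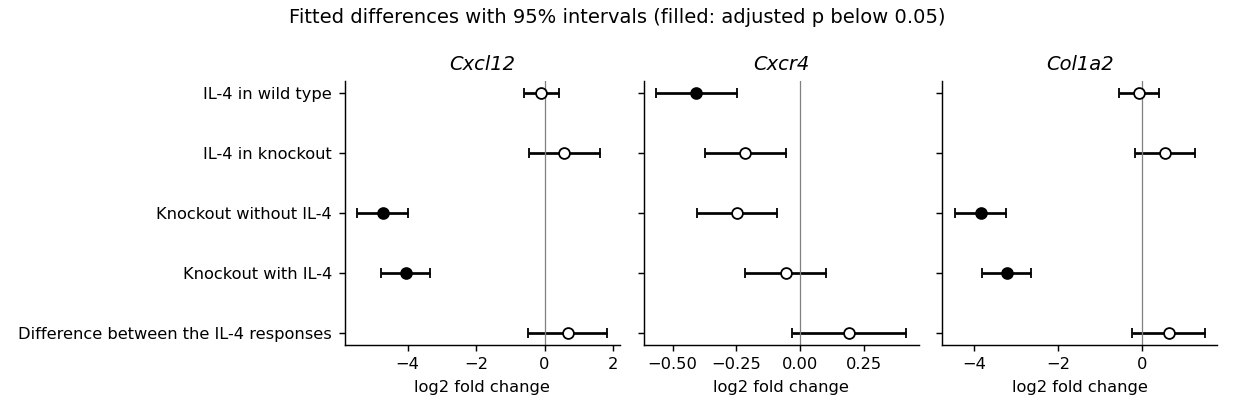
Fitted log2 fold changes of Cxcl12, Cxcr4 and Col1a2 in the 5 comparisons, with 95% intervals (estimate ± 1.96 SE) and filled points where the adjusted p is below 0.05; the horizontal scales differ. Cxcl12 and Col1a2 have filled points in both genotype comparisons, at -3.22 to -4.73, and Cxcr4 in IL-4 in wild type, at -0.41.

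Among the genes whose level over the 24 libraries was most like that of Cxcr4 were Gngt2 (Pearson's r 0.886), Apobec1 (0.868), Clec4n (0.867) and Zdhhc14 (0.852). Gngt2 encodes a G protein gamma subunit, Apobec1 a cytidine deaminase, Clec4n the lectin dectin-2 and Zdhhc14 a palmitoyl transferase. These libraries share the IL-4 difference. Gngt2 was 83.0 CPM in unstimulated wild type, 63.1 with IL-4, 70.6 in unstimulated knockout and 55.5 with IL-4, the same order as Cxcr4. With group means removed, Lyz2 (0.824), Ms4a7 (0.771), Arl5c (0.767) and Shld1 (0.762) were among the genes most like Cxcr4. They were picked in the same way as those for Cxcl12 and were not tested. Lyz2, lysozyme of myeloid cells, is itself on the macrophage marker list and was called lower in knockout in both states. Of the 12 tested markers of that list, 4 were lower in unstimulated knockout and 1, Itgam, was higher. With IL-4, 3 were lower in knockout and 1, again Itgam, was higher. Of all genes tested, 3.42% were called lower and 1.1% higher without IL-4, and 3.09% and 1.51% with it.

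Ackr3, the scavenging receptor, was at the edge of detection. There were 5 reads in 24 libraries, 1 in replicate 3 of unstimulated wild type, 2 in replicate 5 of wild type with IL-4, 1 in replicate 5 of unstimulated knockout and 1 in replicate 1 of knockout with IL-4. A count of 3 over a group of 6 libraries corresponds to 0.0499 to 0.0525 CPM, and no group exceeded it. No fold is given, since every group was under that floor, and the 4 exact permutation tests of the group means gave p = 1.0 (n = 6 against 6). A difference was not detectable at this depth. Cxcl11, the other chemokine that binds ACKR3, had 1, 2, 4 and 2 counts in the 4 groups.

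Proteins that cut or bind CXCL12, and other ligands of its receptors, formed a list of 16 genes, of which 12 were tested. IL-4 raised 3 and lowered 0 in wild type, where 8.49% of all genes tested were called higher and 7.95% lower, with a list median of 0.04 against -0.0162 over all genes. Sdc4, a heparan sulphate proteoglycan that holds the chemokine at the cell surface, rose from 128 ± 26.4 to 241 ± 19.0 CPM (log2 fold change 0.91, adjusted p = 7.94e-05 by edgeR). Its relative Sdc1 rose by 0.88, and Ctsk, the protease cathepsin K, by 0.61. In knockout the 3 rose by 0.81, 1.12 and 0.78, and Hmgb1, a nuclear protein that binds CXCL12 outside the cell, fell by 0.22. There 12.2% of all genes tested were called higher and 11.4% lower. Without IL-4, 4 of the 12 were lower in knockout and 0 higher, and likewise with it, where 3.42% and 3.09% of all genes were called lower, though the list medians were -0.04 and -0.003. They were Hspg2, the basement membrane proteoglycan perlecan (-3.38 without IL-4), and Adm, the peptide adrenomedullin (-2.73, with 11 counts summed over each knockout group). The others, beside the lower stromal markers, were the matrix proteases Mmp2 (-1.70), which is also on the stromal list, and Mmp14 (-1.14). A gene could pass the filter on low counts through its wild-type level alone, so the number called lower is a description. Mif, another ligand of CXCR4, was 27.0 ± 6.82 CPM in unstimulated wild type and 26.7 ± 1.85 CPM in unstimulated knockout (log2 fold change -0.03, adjusted p = 0.966).

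Behind CXCR4 stand inhibitory G proteins, the kinases and arrestins that silence the receptor, and RGS proteins that end the G protein signal. Of 20 tested genes of this list, IL-4 raised 3 and lowered 6 in wild type (median -0.13, against -0.0162 over all genes), and raised 5 and lowered 6 in knockout (median -0.10, against -0.0038 over all genes). Over all genes tested 8.49% were called higher and 7.95% lower in wild type, and 12.2% and 11.4% in knockout. Arrb2, the arrestin that both receptors recruit, fell from 166 ± 21.4 to 98.2 ± 10.1 CPM in wild type, a log2 fold change of -0.76 (SE 0.08, adjusted p = 2.72e-07 by edgeR), and from 166 ± 14.0 to 92.6 ± 8.97 CPM in knockout (-0.84, SE 0.08, adjusted p = 2.76e-08). The gamma subunit gene Gng2 fell by 0.55 and 0.58 in the 2 genotypes. Rgs1, known to dampen CXCR4 responses, fell by 0.75 and 0.67, Rgs2 by 0.49 and 0.64, and Rgs18 by 0.47 and 0.59. Gnai3 rose by 0.27 and 0.30 and Gna13 by 0.21 and 0.24, and the largest rise of the list in knockout was that of Rgs16 (0.86). Gnai2, the main inhibitory alpha subunit of blood cells, was 669 ± 49.3 CPM in unstimulated wild type and 649 ± 62.0 with IL-4 (log2 fold change -0.04, adjusted p = 0.700).

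The genotypes differed in 1 of the 20 tested genes of this list without IL-4, Rgs16, where 4.52% of all genes tested were called. Its level was 4.88 ± 1.13 CPM in unstimulated wild type and 2.58 ± 0.597 CPM in unstimulated knockout (log2 fold change -0.92, adjusted p = 0.00589 by edgeR). With IL-4 the genotypes differed in 0, where 4.59% of all genes tested were called. Rgs16 did not pass in wild type with IL-4 (0.15, adjusted p = 0.670) and rose in knockout (0.86, adjusted p = 0.00281), and no interaction passed. Of 11 genes that sort and degrade the receptors, among them the ubiquitin ligase gene Itch, IL-4 changed 0 in wild type. In knockout it raised 1, Rab7 (0.21), a GTPase of late endosomes. The shares of all genes tested that IL-4 changed were 16.4% in wild type and 23.6% in knockout. The genotypes differed in 0 of the 11 in either state.

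**Figure D5:**
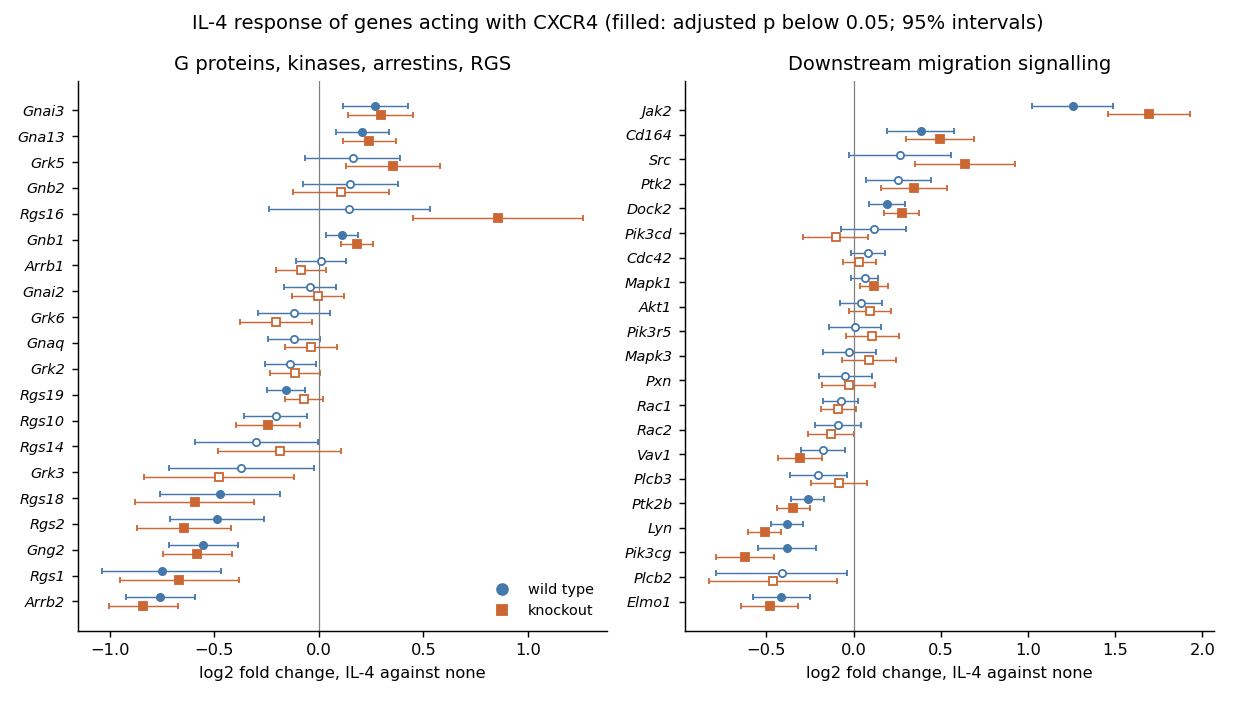
Log2 fold change with IL-4 in wild type (circles) and knockout (squares) for the 20 tested G protein, kinase, arrestin and RGS genes on the left and the 21 downstream migration genes on the right, with 95% intervals and filled symbols where the adjusted p is below 0.05. Arrb2 lies at -0.76 and -0.84 and Jak2 at 1.26 and 1.69.

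Downstream of the receptor, 21 genes of migration signalling were all tested. IL-4 raised 3 and lowered 4 in wild type (median -0.02, against -0.0162 over all genes), and raised 6 and lowered 5 in knockout (median -0.03, against -0.0038). The shares over all genes tested were 8.49% higher and 7.95% lower in wild type and 12.2% and 11.4% in knockout. Jak2, a kinase reported to act at CXCR4 and also at cytokine receptors, rose from 47.3 ± 6.47 to 113 ± 21.0 CPM in wild type, with a log2 fold change of 1.26 (SE 0.12, adjusted p = 2.32e-08 by edgeR), and by 1.69 in knockout. Cd164, a sialomucin that associates with CXCR4, rose by 0.38 and 0.50. Lyn, a Src-family kinase, fell by 0.38 and 0.51, Ptk2b, the kinase PYK2, by 0.26 and 0.35, and Elmo1, which works with DOCK2 to activate Rac, by 0.41 and 0.48. Pik3cg, the G protein-driven phosphoinositide kinase, fell by 0.38 and 0.62. Between genotypes 0 of 21 passed without IL-4, where 4.52% of all genes tested were called. With IL-4 Dock2 (0.24) and Src (0.57) were higher in knockout, where 1.51% of all genes were called higher and 3.09% lower.

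Of 16 genes for transcription factors and regulators known to act on Cxcl12 or Cxcr4, 14 were tested. IL-4 raised Cebpb, a myeloid factor, in wild type (0.55) and in knockout (0.71), and lowered Nr3c1, the glucocorticoid receptor, in knockout (-0.20). Among all genes tested, 8.49% were called higher and 7.95% lower in wild type, and 12.2% and 11.4% in knockout. In knockout Prrx1, a factor of mesenchymal cells that is also on the stromal list, was lower without IL-4 (-2.99) and with it (-3.05). In these 2 comparisons 3.42% and 3.09% of all genes tested were called lower. Epas1, the hypoxia factor HIF-2 alpha, went from 53.4 ± 17.1 CPM in unstimulated wild type to 11.5 ± 5.92 CPM in unstimulated knockout, a log2 fold change of -2.20 (SE 0.34, adjusted p = 1.36e-04 by edgeR), and was also lower with IL-4 (-1.98). Hif1a was 126 ± 20.5 CPM in unstimulated wild type and 121 ± 11.4 CPM with IL-4 (log2 fold change -0.05, adjusted p = 0.740). Stat6 was 232 ± 7.91 and 223 ± 9.69 CPM (log2 fold change -0.05, adjusted p = 0.449).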

How the data were processed

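For 24 libraries of 40 bp single-end reads the authors deposited rounded expected counts of each gene. Per the submitters' processing notes, the build was mm10 and the tools were Bowtie2 2.3.4.1, CASAVA 2.8.0, edgeR and RSEM 1.3.0. A second deposited table holds GETMM, a signal that takes gene length into account, and was used for levels between genes and in limma. Whether strand was kept: not given in the sources used here. All columns matched samples by label (0 unmatched). Genes passing filterByExpr at a minimum count of 10 (12797, holding 99.8% of counts) were tested by robust quasi-likelihood with TMM scaling (edgeR 4.0.16, R 4.3.3), in 1 fit of 4 groups without covariates, and with Benjamini-Hochberg adjustment and a threshold of 0.05. Exact permutation tests over libraries, two-sided, were made with scipy 1.17.1. Coordinates are from GENCODE M21. Total counts per library, 7893809 to 13492507, set the precision of low genes, and pairs of replicates differed by more than sampling noise.

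Members and lists were chosen with earlier results of these data known. Named genes were the members, Col1a2 and Mapkapk2, the 5 genes most like each tested member (average log2 CPM of at least 2, no predicted genes), up to 3 genes per list and comparison with the smallest adjusted p, and cell type markers at 0. Some genes that this rule names are not reported here. Other list genes were chosen after their values were seen. Alternatives were RLE scaling, DESeq2 1.42.0, other filters, 2-group fits, replicate blocks, a covariate for the run of library numbers, leaving out the 3 libraries numbered apart or each library in turn, and limma 3.58.1 on log2(GETMM + 1) or + 0.1. Fits of replicates 1 to 3 and 4 to 6 were added after seeing the data.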

Additional observations from a re-analysis of the deposited data

Results flagged for a closer look

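Of 24 sets of 6 libraries checked for a library far from the others, 5 stood out, where chance gives about 1 in 20. For Ackr3 the highest library of each group did so, because the other 5 libraries were at 0. They were 0.0782 CPM in unstimulated wild type (replicate 3), 0.249 CPM in wild type with IL-4 (replicate 5), 0.0850 CPM in unstimulated knockout (replicate 5) and 0.112 CPM in knockout with IL-4 (replicate 1), each from 1 or 2 reads. Col1a2 in replicate 1 of unstimulated knockout was 4.76 CPM, against a group median of 1.81 CPM, and the same library held the highest Cxcl12 level of its group, 0.580 CPM.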

How the results depend on the processing

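The fall of Cxcl12 in knockout kept its direction and call in 10 of 10 other ways of processing the counts. There it was -4.79 to -2.25 without IL-4 and -4.42 to -2.09 with it, the smallest on log2(GETMM + 1). It also did so in 24 of 24 fits without 1 library, at -5.08 to -4.45 and -4.46 to -3.88. Such fits left out each of the 24 libraries in turn, also those outside the comparison. Cxcr4 with IL-4 in knockout passed at -0.22 by DESeq2, -0.22 in the 2-group fit, -0.22 with the library set term, -0.24 without the 3 libraries numbered apart, -0.23 and -0.23 by limma and -0.35 in replicates 4 to 6, and at -0.19 to -0.26 without 1 library (5 of 24 passed). Cxcr4 in unstimulated knockout was -0.28 to -0.19 without 1 library (1 of 24 passed), -0.45 in replicates 1 to 3 and 0.000325 in replicates 4 to 6. The Cxcr4 interaction was -0.039 in replicates 4 to 6. Cxcl12 with IL-4 in wild type ran from -0.18 to 0.036 without 1 library, turning positive without unstimulated replicate 5 (0.036) or IL-4 replicate 2 (0.031), and in knockout it was -0.0030 in replicates 4 to 6. Col1a2 with IL-4 in wild type was 0.039 without the 3 libraries and -0.17 to 0.037 without 1 library.

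Genes called moved from 579 to 1044 in unstimulated knockout and from 588 to 919 in knockout with IL-4 with the library set term. Replicates 1 to 3 gave 860 of 2103 (IL-4, wild type), 1469 of 3024 (IL-4, knockout) and 309 (knockout with IL-4), and replicates 4 to 6 gave 953, 1059 (knockout without and with IL-4) and 21 (interaction). Fewer libraries entered these fits. The interaction gave 1 by DESeq2 and 3 by limma.

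The Col1a2 ratio without 1 library ranged from -2.53 to 0.533 (IL-4, wild type; 0.0893 without unstimulated replicate 2) and -4.00 to 0.613 (IL-4, knockout; 0.110 without IL-4 replicate 4). Its genotype difference with IL-4 was -5.59 in replicates 1 to 3 and -18.2 in 4 to 6. The stromal-list ratio with IL-4 in wild type was 0.200 from GETMM, 0.0481 without the 3 libraries, 0.0417 in replicates 1 to 3 and -0.175 to 0.150 without 1 library, being 0.0386 without IL-4 replicate 1 and 0.00590, 0.0419, 0.0601 and 0.0997 without unstimulated replicates 2, 4, 5 and 6. Its genotype difference was -1.05 and -2.32 in the 2 sets of replicates without IL-4 and -0.380 and -2.25 with it. The stromal relation in unstimulated wild type was -0.990 without 2 libraries. Ackr3 differences without 1 library were -0.0130 to 0.0415 (IL-4, wild type), -0.0142 to 0.0186 (IL-4, knockout), -0.0130 to 0.0142 (unstimulated knockout, -0.00147 without wild-type replicate 1, 2, 4, 5 or 6) and -0.0415 to 0.0186 CPM (knockout with IL-4). The cause was not tested in any of these cases.

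With culture number as a replicate block, Cxcr4 with IL-4 in knockout was -0.21 and passed (adjusted p = 0.0177 by edgeR), and 2 genes had an interaction. Same-numbered libraries correlated between -0.03 and 0.43 in wild type and between -0.06 and 0.36 in knockout, with 4 of 6 pairs over 0.1 in each genotype, and 4 of 6 libraries correlated best with their own number, a hint of pairing from the data. The labels do not say what the number marks, and pairs were taken only where every pair exceeded 0.1, so the values reported are those without the block. Low counts limit Cxcl12 in knockout and Ackr3 throughout.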
